A study of Mus musculus with 12 samples.

Results

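Matricellular genes of the mouse heart, 9 of the 18079 genes in the deposited table, are described here: Cilp, Thbs1, Thbs2, Thbs3, Thbs4, Postn, Tnc, Sparc and Ccn2 (also called Ctgf). They were taken by gene symbol, after Cilp and Thbs4 had been selected on their high values in banded hearts of DMSO-treated mice. Left ventricular muscle of 12 C57BL/6 mice was sequenced, 1 library per mouse, and the labels give 4 groups of 3 mice: DMSO+Sham and DMSO+AB, which had the solvent, and Hispidulin+Sham and Hispidulin+AB, which had the drug. AB is aortic banding, a surgical narrowing of the aorta that loads the left ventricle, and Sham mice had the operation without the narrowing. By the labels, which give the strain as above (C57BL/6J in the study's methods), the mice were 8 weeks old at the operation and 12 weeks old when the hearts were taken, 4 weeks later. Hispidulin, a plant flavonoid, was injected into the peritoneum at 20 mg/kg/day from 1 day ahead of the operation, and DMSO, its solvent, was injected in the other mice. The strain was the same in all groups and no group carried a genetic change.

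Matricellular proteins are secreted into the extracellular matrix but, unlike fibrillar collagens, do not chiefly build its scaffold. They bind collagens, growth factors and cell receptors and so tune how cells attach, migrate and respond to signals such as TGF-beta. In the adult heart most of them are scarce and are known to be made by fibroblasts and muscle cells after injury or overload.

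Values are FPKM, in which reads are set against the length of the transcript and the reads of the whole library, so levels of different genes can be compared on this scale. Group differences are differences in mean log2(FPKM + 1) with their standard error (SE), which understate the fold change of a gene near 0. They were estimated with limma in 1 model of the 12 mice over 11664 genes, those that reached 1 FPKM in 3 or more mice, and adjusted p-values take all of these genes into account. All 9 matricellular genes passed that filter, Tnc only through banded hearts, since it reached an FPKM of 1 in 4 mice and all 4 had AB. A gene that passes in this way had to differ between banded and sham hearts. FPKM summed to between 535235 and 567027 per mouse, Spearman correlations within groups lay between 0.968 and 0.986, and the sequencing depth is unknown. All 7 ventricular cardiomyocyte markers were expressed in every group, with a summed FPKM of 36118 to 53244 per mouse. Of these, 1 was called between DMSO+Sham and DMSO+AB, against 5.21% of all genes. It was Ryr2, named after its values were seen, which fell (-0.59 ± 0.14 SE in log2, adjusted p = 0.0364 in limma). Single mice stood apart in ways that bear on these genes. DMSO+AB mouse 1 lay far from the other DMSO+AB mice in several of them, as given below. Hispidulin+Sham mouse 3 had a summed FPKM of 773.9 for the atrial markers Myl4, Myl7 and Sln, against at most 40.0 in the other sham mice. Among banded mice that sum was 172.0 in DMSO+AB mouse 2, which had the highest Cilp, Thbs4 and Postn of the study, 91.0 in Hispidulin+AB mouse 3 and 3.06 to 13.6 in the others. DMSO+Sham mouse 3 had the lowest ventricular and the highest macrophage sum, with Actc1 at 2741 FPKM against at least 7909 elsewhere and Fcgr1 at 13.53 against at most 2.09, both named after their values were seen. The labels number the libraries within a group and say no more of how the mice were housed or handled, so p-values measure the spread between these libraries.

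The sequence upstream of 4 of the genes is shown, for Cilp, Thbs4 and Postn because they had the largest differences between the DMSO groups, and for Tnc as the 1 gene with a window from the set that varied with Thbs1, described below. RefSeq promoter windows (GRCm38.p6, 250 bases before to 50 after a start site) were found for 7 of the 9 genes, 9 windows in all, and none for Thbs1 and Ccn2. The bases before the start are printed 5′ to 3′ on the gene's strand. Capitals mark TATAAA and the variant TATATA, the letters of a TATA box. They also mark, on either strand, GGAATG, the core that TEAD factors bind, and the Smad-binding letters CAGACA.
Cilp, chr9:65264930-65265179, plus strand: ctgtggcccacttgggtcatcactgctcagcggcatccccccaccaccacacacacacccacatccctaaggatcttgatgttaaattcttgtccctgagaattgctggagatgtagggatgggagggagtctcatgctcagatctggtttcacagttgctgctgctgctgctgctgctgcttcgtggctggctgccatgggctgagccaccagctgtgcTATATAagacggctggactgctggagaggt
Thbs4, chr13:92794819-92795068, minus strand: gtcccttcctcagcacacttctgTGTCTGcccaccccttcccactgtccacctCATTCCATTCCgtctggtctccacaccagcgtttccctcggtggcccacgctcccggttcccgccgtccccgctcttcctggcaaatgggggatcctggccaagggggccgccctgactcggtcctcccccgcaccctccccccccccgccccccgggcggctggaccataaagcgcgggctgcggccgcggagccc
Postn, second window, chr3:54360857-54361106, plus strand: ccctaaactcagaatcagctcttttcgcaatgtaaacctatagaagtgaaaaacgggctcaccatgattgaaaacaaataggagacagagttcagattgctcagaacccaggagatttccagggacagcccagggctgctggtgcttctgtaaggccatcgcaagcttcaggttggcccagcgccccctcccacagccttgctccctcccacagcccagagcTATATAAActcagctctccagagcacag
Tnc, second window, chr4:64046937-64047186, minus strand: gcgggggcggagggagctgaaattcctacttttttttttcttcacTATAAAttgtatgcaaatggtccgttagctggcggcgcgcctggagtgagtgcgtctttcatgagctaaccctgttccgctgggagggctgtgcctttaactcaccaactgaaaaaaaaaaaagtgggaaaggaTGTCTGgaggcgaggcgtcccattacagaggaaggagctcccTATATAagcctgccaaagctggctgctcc
With the start as position 0, Cilp held TATATA at -30, and the second Tnc window held TATATA at -29. The second Postn window held TATATA at -28 and TATAAA, which overlaps it, at -26. TATAAA or TATATA on the gene strand within the 60 bases before the start was present in 4.06% of all 32851 RefSeq windows. That search was added after the windows had been read. The printed Postn and Tnc windows are the ones with such a match. Within those 60 bases neither was found in the first Postn and Tnc windows, nor in the windows of Thbs2, Thbs3, Thbs4 and Sparc. The Thbs4 window was 72% G and C, against a median of 52.7% over all windows. On the other strand it held GGAATG at -197 and -192 and CAGACA at -227. Searched on both strands over whole windows, GGAATG was present in 14.7%, CAGACA in 21.0% and TATAAA in 13.6% of all windows. TGANTCA, the AP-1 element, was in none of the 9 windows and in 7.81% of all windows. These are matches of letters and show nothing about binding in these hearts.

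Cilp encodes cartilage intermediate layer protein, a secreted matrix glycoprotein that binds TGF-beta1. Its FPKM was 2.41, 3.55 and 1.62 in the 3 DMSO+Sham mice and 1.92, 2.48 and 3.53 in the 3 Hispidulin+Sham mice. It was 6.79, 84.09 and 76.22 in DMSO+AB mice 1, 2 and 3, and 6.80, 18.88 and 11.15 in Hispidulin+AB mice 1, 2 and 3. Every banded heart was above every sham heart. The DMSO+AB group was split, with mouse 1 at the level of the lowest Hispidulin+AB mouse and the other DMSO+AB mice above all others. Mean FPKM was 55.7 ± 42.5 (SD, n = 3) in DMSO+AB and 2.53 ± 0.97 (SD, n = 3) in DMSO+Sham, a difference of 3.43 ± 0.72 (SE) in mean log2(FPKM + 1). That was the third highest difference among the genes in the model and is a value on which Cilp was chosen, so it is given without a test.

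**Figure D1:**
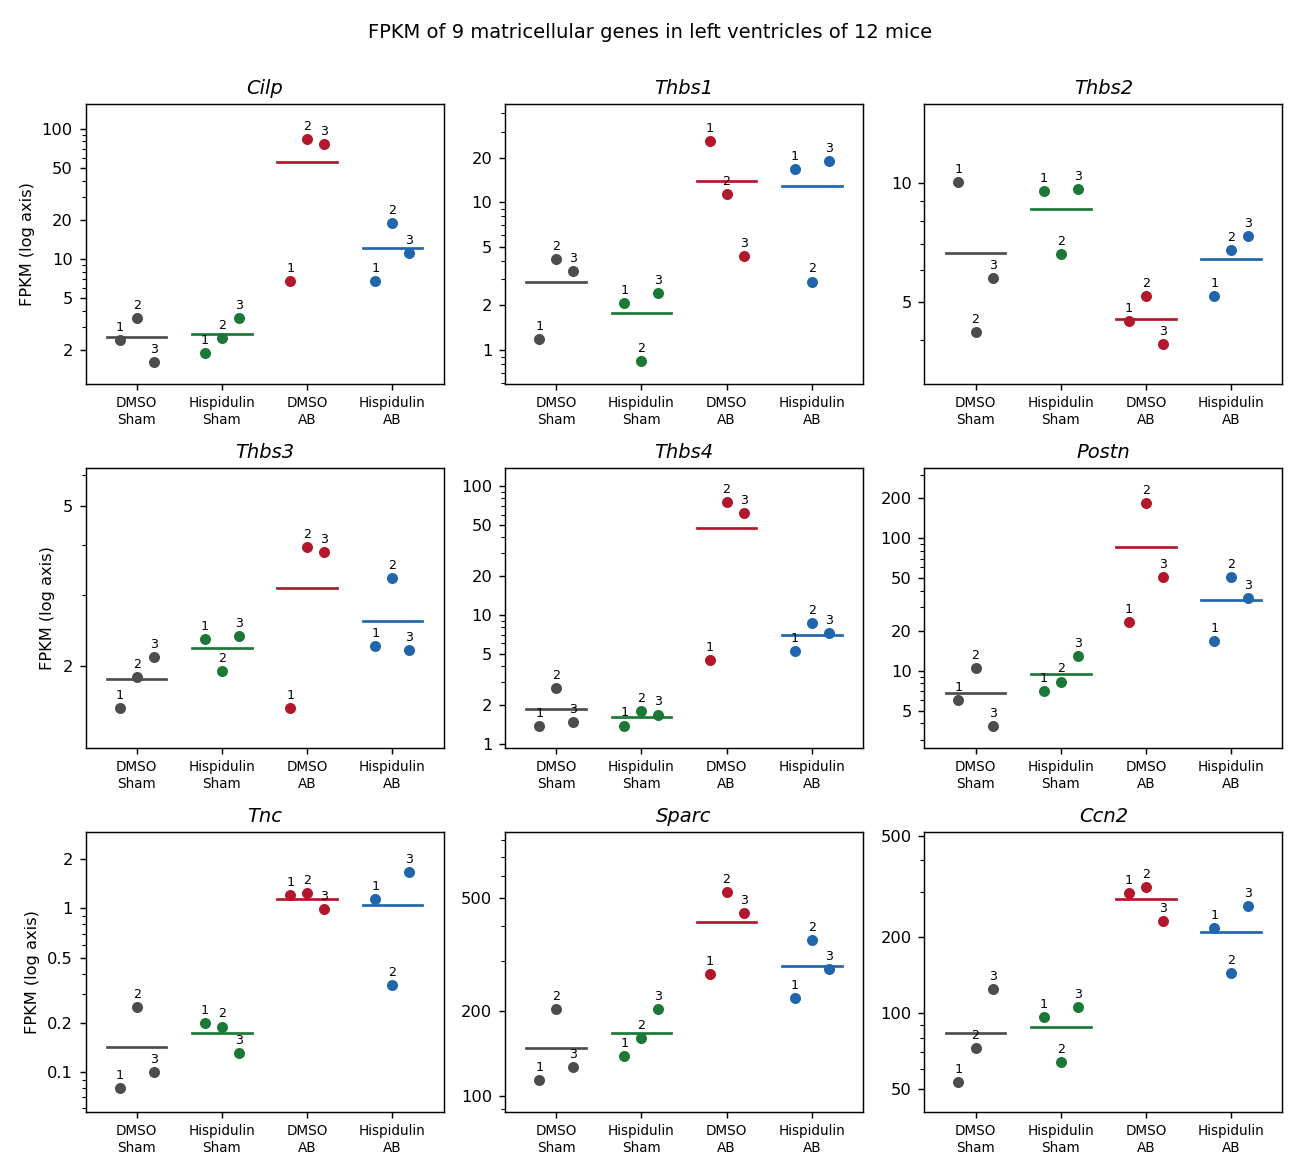
FPKM of the 9 genes on log axes (y) in the 4 groups (x). Each point is 1 mouse with its replicate number and each line is the mean of 3 mice. Cilp and Thbs4 sit at 76.22 and 84.09 and at 61.66 and 74.73 in DMSO+AB mice 3 and 2, and at 6.79 and 4.42 in DMSO+AB mouse 1.

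Thbs4 belongs to the group of thrombospondins that form pentamers and is known in heart muscle as a protein of the endoplasmic reticulum stress response as well as of the matrix. Its FPKM was 1.36, 2.69 and 1.48 in DMSO+Sham and 1.38, 1.78 and 1.68 in Hispidulin+Sham. It was 4.42, 74.73 and 61.66 in DMSO+AB and 5.19, 8.58 and 7.27 in Hispidulin+AB. As with Cilp, every banded heart exceeded every sham heart and DMSO+AB mouse 1 stood with the Hispidulin+AB mice. The difference between DMSO+AB and DMSO+Sham was 3.41 ± 0.73 (SE), again a value that selected the gene. Without DMSO+AB mouse 1 it was 4.63 for Thbs4 and 4.56 for Cilp, and without DMSO+AB mouse 2 it was 2.73 and 2.83.

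Thbs1, which activates latent TGF-beta and inhibits new vessel growth through CD36, followed another order of mice. Its FPKM was 1.19, 4.09 and 3.42 in DMSO+Sham and 2.08, 0.84 and 2.44 in Hispidulin+Sham. It was 25.72, 11.35 and 4.32 in DMSO+AB mice 1, 2 and 3, and 16.77, 2.90 and 19.04 in Hispidulin+AB mice 1, 2 and 3. DMSO+AB mouse 1, the lowest of its group for Cilp and Thbs4, was the highest for Thbs1, and Hispidulin+AB mouse 2, the highest of its group for Cilp, was the lowest for Thbs1. Thbs2, which resembles Thbs1 in its domains and also inhibits vessel growth, did not share this direction. Its FPKM was 10.03, 4.19 and 5.73 in DMSO+Sham, 9.51, 6.60 and 9.65 in Hispidulin+Sham, 4.47, 5.18 and 3.90 in DMSO+AB and 5.16, 6.76 and 7.33 in Hispidulin+AB. The banded and sham ranges of Thbs2 overlapped under both treatments. Thbs3, a pentameric thrombospondin, was at 1.57, 1.88 and 2.11 FPKM in DMSO+Sham and 2.34, 1.94 and 2.37 in Hispidulin+Sham. It was at 1.57, 3.96 and 3.84 in DMSO+AB and 2.24, 3.32 and 2.19 in Hispidulin+AB, and these ranges also overlapped.

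The make-up of the thrombospondin pool differed between mice. The summed FPKM of Thbs1, Thbs2, Thbs3 and Thbs4 was 12.7 to 14.2 in DMSO+Sham and 11.2 to 16.1 in Hispidulin+Sham, and Thbs2 held the largest share of it in every sham heart, from 32.6% to 70.9%. After AB the sum was 36.2, 95.2 and 73.7 in DMSO+AB mice 1, 2 and 3, and 29.4, 21.6 and 35.8 in Hispidulin+AB. Thbs4 made up 78.5% and 83.6% of it in DMSO+AB mice 2 and 3 but 12.2% in mouse 1, where Thbs1 held 71.1%. In Hispidulin+AB, Thbs1 held 57.1% and 53.1% in mice 1 and 3, whereas in mouse 2 Thbs4 held 39.8%, Thbs2 31.4% and Thbs1 13.5%. Thbs1 or Thbs4 thus held the largest share in every banded heart, although the pool of Hispidulin+AB mouse 2 was mixed.

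**Figure D2:**
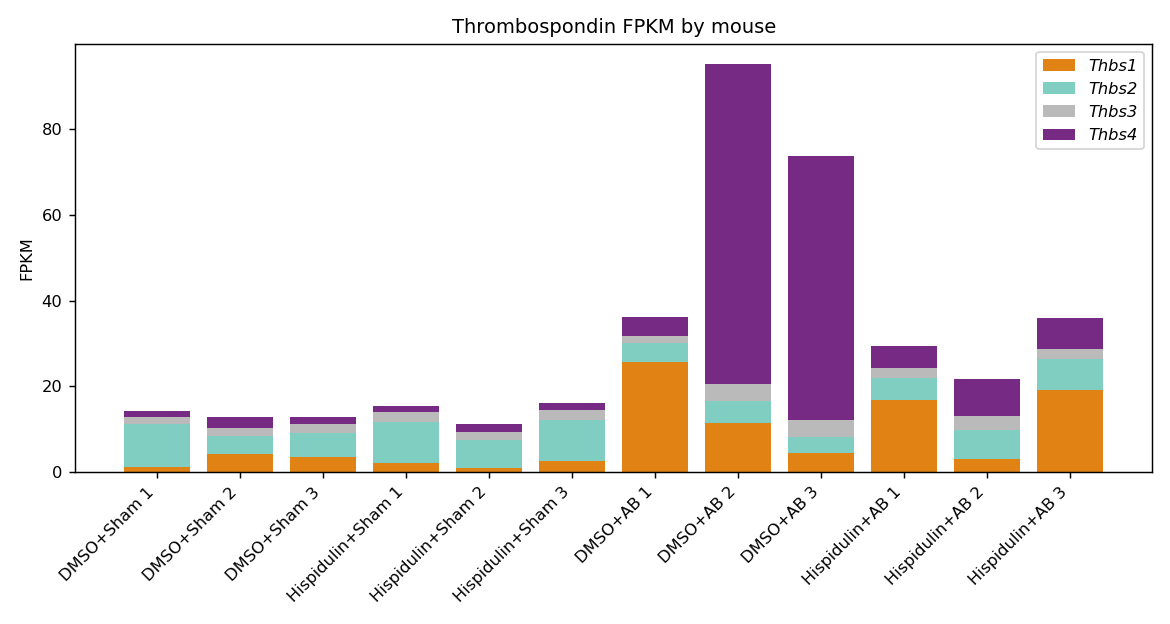
FPKM (y) of Thbs1, Thbs2, Thbs3 and Thbs4, stacked, in each of the 12 mice (x). Thbs2 is the largest block in all sham hearts, Thbs4 makes up 78.5% and 83.6% in DMSO+AB mice 2 and 3, and Thbs1 makes up 71.1% in DMSO+AB mouse 1.

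Periostin (Postn), a collagen-binding protein made by activated fibroblasts, was at 6.03, 10.48 and 3.82 FPKM in DMSO+Sham and 6.98, 8.28 and 12.83 in Hispidulin+Sham. It was at 23.44, 183.62 and 50.92 in DMSO+AB and 16.82, 50.85 and 35.17 in Hispidulin+AB. Every banded heart was above every sham heart, and the DMSO+AB mean of 86.0 rested mainly on mouse 2. Sparc, also called osteonectin, binds collagen and helps its processing, and was the most abundant of the 9 genes in every group. Its FPKM was 114.34, 202.87 and 126.57 in DMSO+Sham, 139.14, 161.07 and 203.20 in Hispidulin+Sham, 269.48, 526.48 and 444.65 in DMSO+AB and 221.80, 357.26 and 282.12 in Hispidulin+AB. Banded and sham hearts did not overlap, and mice 1 were again the lowest of both banded groups.

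Ccn2, or connective tissue growth factor, is a secreted protein known as a target of TGF-beta and YAP signalling. Its FPKM was 53.56, 72.67 and 123.93 in DMSO+Sham and 96.13, 63.98 and 105.43 in Hispidulin+Sham. It was 298.30, 314.25 and 230.34 in DMSO+AB and 215.67, 143.27 and 264.89 in Hispidulin+AB, above every sham heart in each case. Tenascin-C (Tnc), a glycoprotein of embryonic and injured tissue, was the scarcest of the 9. It was at 0.08, 0.25 and 0.10 FPKM in DMSO+Sham, 0.20, 0.19 and 0.13 in Hispidulin+Sham, 1.21, 1.25 and 0.99 in DMSO+AB and 1.15, 0.34 and 1.67 in Hispidulin+AB. Unlike Cilp and Thbs4, Ccn2 and Tnc had no low outlying DMSO+AB mouse, with coefficients of variation of 15.9% and 12.2% in that group against 76.4% for Cilp and 79.7% for Thbs4.

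The order of the levels differed between sham and banded hearts. In DMSO+Sham the means ran from Sparc (148 FPKM) and Ccn2 (83.4) to Postn (6.78), Thbs2 (6.65), Thbs1 (2.90), Cilp (2.53), Thbs3 (1.85), Thbs4 (1.84) and Tnc (0.14). Sparc and Ccn2 overlapped in their ranges over the 3 mice, as did Postn and Thbs2, and the neighbours from Thbs1 to Thbs4, whereas Ccn2 and Postn, Thbs2 and Thbs1, and Thbs4 and Tnc did not. In DMSO+AB the order was Sparc (414), Ccn2 (281), Postn (86.0), Cilp (55.7), Thbs4 (46.9), Thbs1 (13.8), Thbs2 (4.52), Thbs3 (3.12) and Tnc (1.15). There Sparc and Ccn2 overlapped and so did each pair of neighbours from Postn to Thbs3, whereas Ccn2 lay above Postn and Thbs3 above Tnc in every mouse.

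Between DMSO+AB and DMSO+Sham, 5.21% of all genes tested had an adjusted p under 0.05 in limma, and 6 of the 9 matricellular genes were among them, all higher after AB. In 7 of the 9 genes every DMSO+AB mouse was above every DMSO+Sham mouse, against 7.18% of all genes. The genes were chosen with this contrast in view and Tnc entered only through banded hearts, so nothing is read from these counts. The 6 calls were not stable, with 0 left in a model of only the 6 DMSO mice, and 1 left with the series of library numbers as a covariate, where DMSO+Sham mouse 1 is alone in its series and so adds nothing to this contrast, or without DMSO+Sham mouse 1, DMSO+AB mouse 2 or DMSO+AB mouse 3. The differences were 3.08 ± 0.62 (SE) for Postn, 1.81 ± 0.30 for Ccn2, 1.72 ± 0.65 for Thbs1, 1.47 ± 0.28 for Sparc and 0.91 ± 0.20 for Tnc. Thbs3 differed by 0.47 ± 0.23 and Thbs2 by -0.41 ± 0.24. For Tnc the added 1 weighs heavily, and with 0.1 added in its place the difference was 2.42.

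The Hispidulin+AB and Hispidulin+Sham mice are other animals than those on whose values Cilp and Thbs4 were selected, although the list was drawn up with results of all groups known. Their comparison asks whether the same genes were higher after AB in 6 other animals. Tnc is left out of the counts that follow, since its banded values let it pass the filter. In 6 of the other 8 genes every Hispidulin+AB mouse was above every Hispidulin+Sham mouse, against 9.14% of all genes tested in that direction. None of the 9 had an adjusted p under 0.05 in limma, nor did any of the 11664 genes (0%). At an unadjusted p under 0.05 there were 5 of these 8, all higher after AB, against 7.26% of all genes. With Tnc the count was 6 of 9, and it was 3 of 9 without Hispidulin+Sham mouse 1 or without Hispidulin+AB mouse 2. Thbs1 had the largest difference, 2.05 (95% confidence interval 0.63 to 3.48, unadjusted p = 0.00863 and adjusted p = 0.516 in limma). Cilp differed by 1.79 (0.22 to 3.35, adjusted p = 0.639 in limma), Postn by 1.68 (0.33 to 3.02, adjusted p = 0.606) and Thbs4 by 1.60 (-0.0047 to 3.20, adjusted p = 0.682). Ccn2 had the smallest p of the 9, with a difference of 1.21 (0.55 to 1.87, unadjusted p = 0.00175 and adjusted p = 0.392 in limma). Sparc differed by 0.76 (0.16 to 1.36) and Tnc, which the filter favours in this direction, by 0.75. Thbs3, at 0.14 (-0.35 to 0.64), and Thbs2, at -0.37 (-0.89 to 0.16), had intervals that include 0. The median of the 8 differences was 1.403, against -0.02 over all genes tested.

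**Figure D3:**
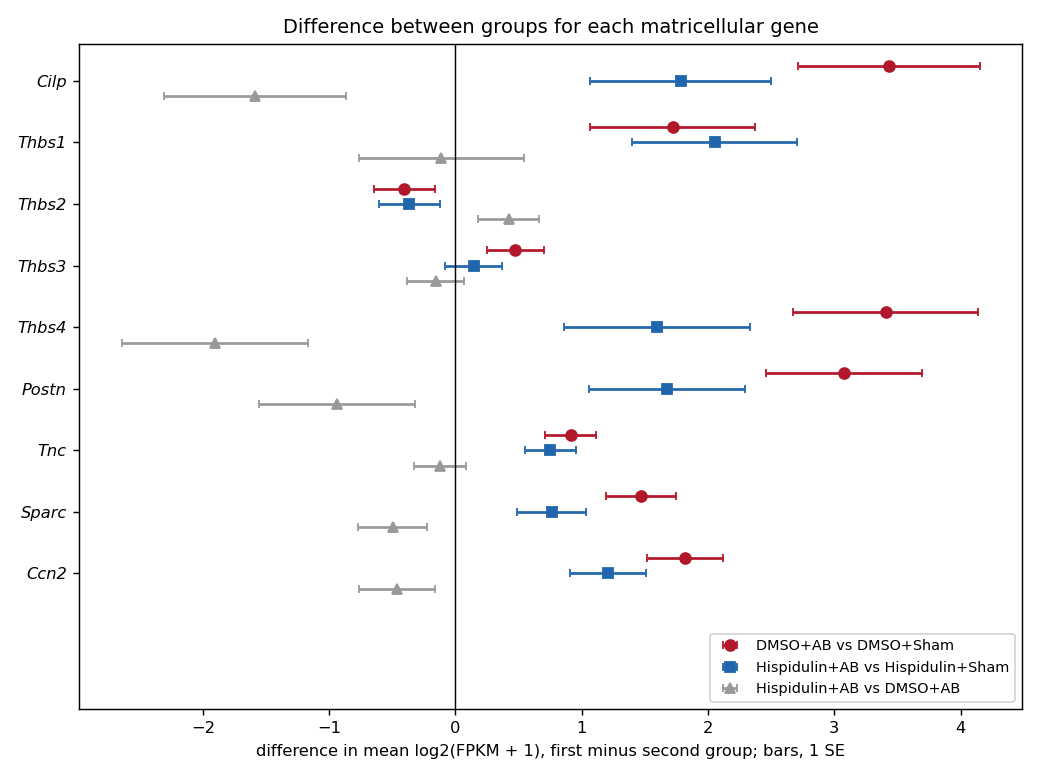
Differences in mean log2(FPKM + 1) (x) of each gene (y) for DMSO+AB minus DMSO+Sham, Hispidulin+AB minus Hispidulin+Sham and Hispidulin+AB minus DMSO+AB, with bars of 1 SE and 3 mice per group. Cilp, Thbs4 and Postn lie at 3.43, 3.41 and 3.08 in DMSO mice and at 1.79, 1.60 and 1.68 in hispidulin mice, whereas Thbs1 lies at 1.72 and 2.05.

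That result depended on the estimate of spread, to which DMSO+AB mouse 1 contributes. Without that mouse the difference of Thbs4 between the hispidulin groups was the same 1.60 and its adjusted p in limma was 0.0265, with 10 genes passing in all. With only the 6 hispidulin mice in the model, Thbs4 passed as well (adjusted p = 0.00679 in limma), and with library weights Ccn2 passed (adjusted p = 0.0213). With the replicate number as a block 17 of all genes passed and 0 of the 9. Leaving out Hispidulin+Sham mouse 3, which had the highest atrial marker sum, gave differences of 1.95 for Cilp, 1.62 for Thbs4 and 1.90 for Postn, and 0 of the 9 passed. The numbers in the library names fall into a series in the 5000s and one in the 6000s, apart from DMSO+Sham mouse 1, whose number is 1, and the labels do not give their meaning. Within them Cilp differed by 1.93 (1 mouse against 2) and 1.46 (2 against 1), Thbs4 by 1.68 and 1.52, and Thbs1 by 3.07 and 1.28.

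Hispidulin+AB was compared with DMSO+AB to see whether the treatment was accompanied by other levels in banded hearts. This contrast shares the DMSO+AB mice on whose high values Cilp and Thbs4 were chosen. Mean FPKM was 12.3 ± 6.1 (SD, n = 3) against 55.7 ± 42.5 for Cilp and 7.01 ± 1.71 against 46.9 ± 37.4 for Thbs4. On the log2 scale Cilp differed by -1.59 (95% confidence interval -3.15 to -0.02) and Thbs4 by -1.90 (-3.51 to -0.30), the lowest value of all genes tested. The adjusted p of each was 0.996 in limma, and 0 of the 9 and 0 of all genes (0%) passed. At an unadjusted p under 0.05 there were 2 of the 9, Cilp and Thbs4, against 3.10% of all genes. That count was 0 without DMSO+AB mouse 2, DMSO+AB mouse 3 or Hispidulin+AB mouse 1, and 1 with 0.1 as the added value, with no filter or with only the banded mice in the model. It was also 1 without DMSO+Sham mouse 2, without any 1 Hispidulin+Sham mouse or without Hispidulin+AB mouse 3. It was 3 with the replicate block or without Hispidulin+AB mouse 2, 4 with library weights and 5 without DMSO+AB mouse 1. In 0 of the 9 was every Hispidulin+AB mouse below every DMSO+AB mouse, against 3.65% of all genes. For Cilp and Thbs4, DMSO+AB mouse 1, at 6.79 and 4.42 FPKM, was below every Hispidulin+AB mouse while DMSO+AB mice 2 and 3 were above every one. The other differences were -0.94 for Postn, -0.50 for Sparc, -0.46 for Ccn2, -0.16 for Thbs3, -0.12 for Tnc, -0.11 for Thbs1 and 0.42 for Thbs2, all with intervals that include 0.

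Single mice weighed heavily in this comparison. Without DMSO+AB mouse 1, Cilp differed by -2.71 (adjusted p = 0.0173 in limma) and Thbs4 by -3.13 (adjusted p = 0.000312), and 20 of all genes passed. Those values rest on DMSO+AB mice 2 and 3, which had the highest Cilp and Thbs4 of the study and are therefore the mice that selected these genes. Without DMSO+AB mouse 2, Cilp differed by -0.99, Thbs4 by -1.22 and Postn by -0.15, without mouse 3 by -1.06, -1.36 and -1.06, and 0 of the 9 passed in either case. Within the series of library numbers Cilp differed by -2.67 (1 mouse against 1) in the 5000s and -1.05 (2 against 2) in the 6000s, and Thbs1 by 1.91 and -1.13.

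Whether AB was accompanied by a different change under hispidulin than under DMSO was tested as an interaction. None of the 9 genes passed (adjusted p = 1.00 for each in limma), as was so for all genes (0%). At an unadjusted p under 0.05 there were 0 of the 9, against 2.48% of all genes. That count was not stable. Leaving out DMSO+AB mouse 1 raised it to 5, beside 843 of all genes. Weighting the libraries also gave 5, beside 1013 of all genes. It was 1 when DMSO+Sham mouse 2 or 3 was left out, or when replicate numbers were blocked. The interaction was -1.65 (95% confidence interval -3.86 to 0.56) for Cilp, -1.81 (-4.07 to 0.46) for Thbs4, -1.40 (-3.31 to 0.50) for Postn and 0.33 (-1.68 to 2.35) for Thbs1. The intervals of Cilp, Thbs4 and Postn hold both 0 and a value as large as their whole difference between the DMSO groups. Without DMSO+AB mouse 1 the interaction of Thbs4 was -3.03 (adjusted p = 0.00704 in limma), a value that again rests on DMSO+AB mice 2 and 3, on which Thbs4 was selected.

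In sham hearts none of the 9 genes differed between treatments by more than the test could call. Hispidulin+Sham minus DMSO+Sham ranged from -0.45 for Thbs1 to 0.47 for Postn, with 0.06 for Cilp (95% confidence interval -1.50 to 1.62) and -0.09 for Thbs4 (-1.70 to 1.51). In limma 0 of the 9 and 0 of all genes (0%) passed, and 0 of the 9 had an unadjusted p under 0.05, against 2.46% of all genes. The groups overlapped in all 9 genes, whereas 5.60% of all genes did not overlap in one direction or the other. This contrast shares the DMSO+Sham mice with the one that selected the genes.

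The spread between mice of 1 group was wide in some of these genes. The residual SD of log2(FPKM + 1) within groups was 1.09 for Thbs4, 1.06 for Cilp, 0.97 for Thbs1 and 0.92 for Postn, above that of 99.5% to 99.7% of the genes tested, whose median was 0.18. Ccn2 (0.44), Sparc (0.40), Thbs2 (0.34), Thbs3 (0.31) and Tnc (0.27) were nearer to other genes, at the 79.1 to 94.6 percentile. Much of this rested on DMSO+AB mouse 1, and so on the group whose values chose Cilp and Thbs4. Without it the residual SD was 0.27 for Thbs4, 0.45 for Cilp and 0.16 for Thbs3, but 0.89 for Thbs1 and 0.76 for Postn, with a median of 0.17 over all genes.

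Mice of a group deviated together in a pair of patterns. After the group means were removed, Cilp correlated with Thbs4 at r = 0.97, with Thbs3 at 0.90, with Sparc at 0.83 and with Postn at 0.83 over the 12 mice. A second set, Thbs1 with Tnc (0.76) and with Ccn2 (0.73) and Tnc with Ccn2 (0.51), varied together as well. Between the sets, Thbs1 had r of -0.62 with Cilp, -0.60 with Thbs3, -0.52 with Thbs4, -0.34 with Sparc and -0.33 with Postn. Over the 12 mice Tnc and Ccn2 were less closely related to the first set, with r of -0.25 each with Cilp, -0.10 and -0.14 with Thbs4, and -0.42 (Tnc) and -0.05 (Ccn2) with Thbs3. Thbs2 followed neither over the 12 mice, with r between -0.21 (Sparc) and 0.16 (Postn), but it had r = 0.67 with Ccn2 without DMSO+Sham mouse 1 and 0.47 with Postn without DMSO+Sham mouse 2. The points share 4 group means and 8 residual degrees of freedom, and single mice weigh heavily. Without DMSO+AB mouse 1, Cilp and Thbs4 had r = 0.83, Cilp and Postn 0.80, Cilp and Sparc 0.87, and Cilp and Thbs3 0.50. Without that mouse Thbs1 kept r of -0.44 with Cilp and -0.37 with Thbs3 but had -0.10 with Thbs4, -0.04 with Sparc and -0.0026 with Postn, whereas Tnc moved to -0.73 with Thbs3 and -0.46 with Cilp, and Ccn2 to -0.41 with Cilp. Without Hispidulin+AB mouse 2, Thbs1 and Tnc had r = 0.46, Thbs1 and Ccn2 0.62 and Tnc and Ccn2 0.20. The ratio of Thbs4 to Cilp stayed between 0.454 and 0.914 in all 12 mice while Cilp ranged from 1.62 to 84.09 FPKM.

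**Figure D4:**
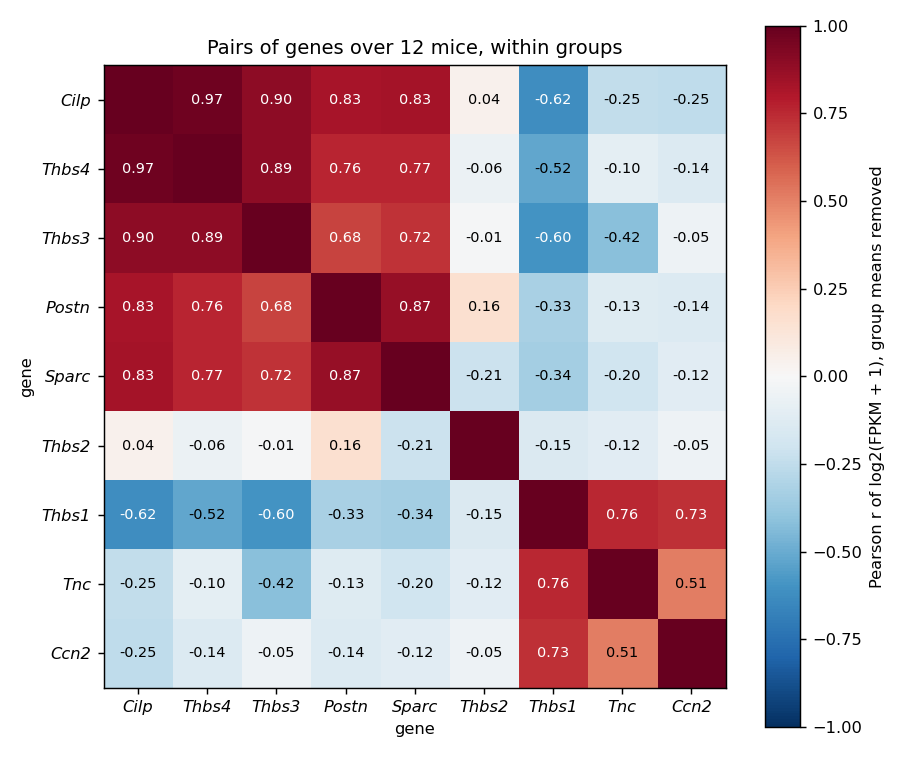
Pearson r of log2(FPKM + 1) for each pair of the 9 genes over 12 mice after removal of group means (colour and number). Cilp, Thbs4, Thbs3, Postn and Sparc form a block with r from 0.68 to 0.97, Thbs1, Tnc and Ccn2 one with r from 0.51 to 0.76, and Thbs2 lies between -0.21 and 0.16 with all others.

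**Figure D5:**
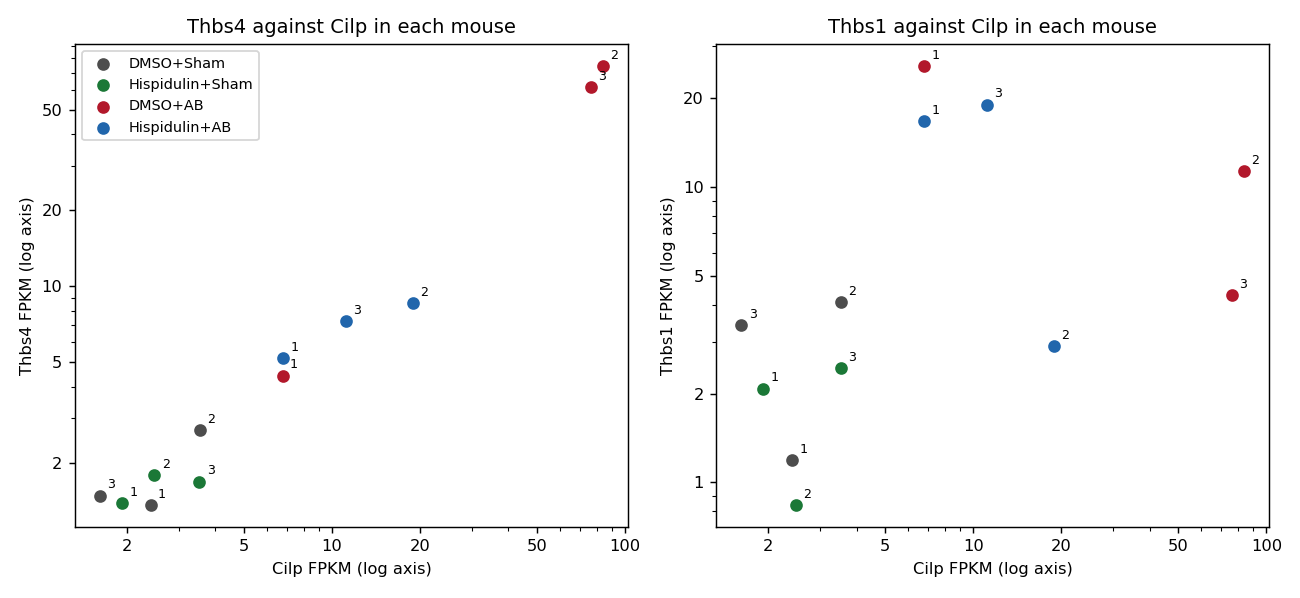
FPKM of Thbs4 (left, y) and Thbs1 (right, y) against Cilp (x) in each mouse, log axes, coloured by group and numbered by replicate. Thbs4 and Cilp lie along 1 line from sham to banded hearts, whereas among banded hearts the mice with Thbs1 of 16.77 or more all have Cilp of 11.15 or less.

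The genes most like Cilp over the 12 mice outside the 9, ranked by Pearson r, were Ltbp2 (0.99), Bgn (0.99), Col16a1 (0.99), Mfap4 (0.99) and Serpinf1 (0.98). Among those most like Thbs4 were Ltbp2 (0.99), Iah1 (0.98), Lman1l (0.98) and Serpinf1 (0.97). All of these kept an r of at least 0.94 after group means were removed. That r includes DMSO+AB mouse 1, on which much of the spread of Cilp and Thbs4 within groups rested. Ranked by Spearman's rho, 2 of the first 5 for Cilp were kept. Spearman's rho with Thbs4 was 0.97 for Ltbp2, 0.87 for Iah1, 0.94 for Lman1l and 0.97 for Serpinf1.

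Among 20 other matricellular genes, 13 passed the filter, and 2 of them rose between DMSO+Sham and DMSO+AB while none fell, against 5.21% of all genes called. These were Fstl1, a secreted follistatin-like glycoprotein (1.62 ± 0.31 SE, adjusted p = 0.0174 in limma), and Ccn5, a CCN protein that lacks the C-terminal domain of Ccn2 (1.99 ± 0.52, adjusted p = 0.0494). Ccn5 is named because it passed, after its values were seen. Ccn1, a close relative of Ccn2, was, like Thbs1, highest in mouse 1 of DMSO+AB and lowest in mouse 2 of Hispidulin+AB, with 255.02, 66.16 and 75.91 FPKM in DMSO+AB and 149.58, 72.83 and 221.59 in Hispidulin+AB, and did not pass (adjusted p = 0.152 in limma). Sparcl1 and Smoc2, both relatives of Sparc, did not pass either. Comp, the fifth thrombospondin, a protein of cartilage and tendon, had the order seen for Thbs4. It was at 1.04, 42.13 and 19.17 FPKM in DMSO+AB, 2.11, 4.70 and 2.40 in Hispidulin+AB and at most 1.99 in any sham heart, with a difference of 2.43 ± 0.81 in DMSO mice that did not pass (adjusted p = 0.111 in limma). Cilp2, the paralog of Cilp, was below the filter, with at most 1.62 FPKM. Between Hispidulin+AB and Hispidulin+Sham 0 of the 13 passed, and 3 had an unadjusted p under 0.05, Fstl1, Ccn1 and Ccn5, all higher, against 7.26% of all genes.

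Receptors, growth factors and structural partners of these proteins were read from the same fit between DMSO+AB and DMSO+Sham. The counts below stand against 5.21% of all genes called. Of 13 tested receptors, 1 rose, a share near that background, Itga9, the integrin chain that binds tenascin-C and osteopontin (1.28 ± 0.22 SE, adjusted p = 0.0111 in limma), named after its values were seen. The abundant receptors Cd36, Itgb1, Itgb5 and Itga5 did not pass. Of 8 growth factors and their processing proteins, 4 rose, Tgfb1 (0.59 ± 0.13), Tgfb2 (1.36 ± 0.16), Tgfb3 (0.84 ± 0.21) and Bmp1 (0.54 ± 0.12), of which Tgfb2 and Tgfb3 are named after their values were seen, while Vegfa, the most abundant of the 8 (0.0027 ± 0.15), and Ltbp1 (-0.12 ± 0.18) did not pass. Of 6 interstitial collagen and fibronectin genes, 4 rose, Col1a1 (1.86 ± 0.46), Col1a2 (1.60 ± 0.41), Col5a2 (1.61 ± 0.29, named after its values were seen) and Fn1 (0.98 ± 0.22), while Col3a1 did not pass (2.04 ± 0.58, adjusted p = 0.0665 in limma). Median differences were 0.50 for the other matricellular genes, 0.06 for receptors, 0.57 for growth factors and 1.60 for collagens and fibronectin, against -0.03 over all genes tested. In the remaining comparisons 0 genes of these lists passed, while 3 growth factor genes, 1 receptor and 1 collagen gene had an unadjusted p under 0.05 between the hispidulin groups, 2, 0 and 1 between the banded groups, 0, 1 and 0 between the sham groups and 1, 1 and 0 in the interaction, against 7.26%, 3.10%, 2.46% and 2.48% of all genes.

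Markers of other cell types were read beside these values, because in bulk tissue more cells of a type and more RNA per cell cannot be told apart. The 9 fibroblast markers summed to 884.6 to 987.8 FPKM in DMSO+Sham and 962.5 to 1122 in Hispidulin+Sham. They summed to 949.7, 1450 and 1426 in DMSO+AB mice 1, 2 and 3, the order in which Cilp and Thbs4 were low, high and high, and to 978.7, 1172 and 1052 in Hispidulin+AB. Gsn, the most abundant of them, was at 497.49, 504.6 and 727.34 in those DMSO+AB mice. Mouse 1 was the lowest DMSO+AB mouse in each marker except Pdgfra and Dpt. Pdgfra was at 7.22, 6.84 and 7.93 and Dpt, named after its values were seen, at 41.66, 55.79 and 34.4. All 9 fibroblast markers had a higher mean in DMSO+AB than in DMSO+Sham (median difference 0.55), as had 5157 of all 11664 genes. An unadjusted p under 0.05 in limma was reached by 6 of the 9, Pdgfra and Tcf21 among them, against 2378 of all 11664 genes. Of the 9, 2 rose in limma after adjustment, Mfap5 (2.44 ± 0.37 SE) and Pi16 (1.49 ± 0.33), while the most abundant, Gsn (0.23 ± 0.13) and Dcn (0.16 ± 0.20), did not pass, and nor did Pdgfra and Tcf21, which are named as defining markers. The 6 cartilage and tendon markers summed to 1.32, 30.1 and 17.1 in DMSO+AB mice 1, 2 and 3 and to at most 5.14 elsewhere, most of it Fmod in mice 2 and 3, with Tnmd at 0, 2.90 and 1.59 and the defining cartilage markers Col2a1 and Acan at 0.09 FPKM or less in every mouse. Endothelial markers summed to 293.5 to 367.5 and macrophage markers to 76.7 to 176.1 over all mice, and 0 of 6 passed in each list. Smooth muscle markers summed to 62.1 to 321.3, with 0 of 5 passing, and platelet markers, which matter because platelets store Thbs1 protein, to 10.5 to 34.8, with 0 of 2 passing. Epicardial and mesothelial markers summed to 8.73, 4.46 and 2.04 in Hispidulin+AB mice 1, 2 and 3, to 1.63 to 2.40 in DMSO+AB and to 1.48 to 4.36 in sham hearts. Of the 3 tested, Upk3b and Msln differed by 0.87 and 0.94 between Hispidulin+AB and DMSO+AB, but both passed the filter only through hispidulin-treated mice, and 0 passed the test in any comparison in limma. Fat cell markers summed to 0.04 to 3.97, with 0 of 1 passing. The pressure overload markers Nppa, Nppb, Myh7, Acta1 and Ankrd1 summed to 6280, 16293 and 18591 in DMSO+AB mice 1, 2 and 3, to 5608 to 8113 in Hispidulin+AB and to 843.6 to 2426 in sham hearts. DMSO+AB mouse 1 was thus the lowest of its group for the Cilp and Thbs4 set, the fibroblast sum and the overload sum alike, and the part that cell makeup or the degree of load had in these differences was not tested.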

How the data were processed

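The authors sequenced polyadenylated RNA on a BGISEQ-500 (single-end, 50 bases) and deposited FPKM for 18079 genes, rounded to 0.01, in 1 table. The submitters' processing notes list HISAT2 2.0.4, Bowtie2 2.2.5, RSEM 1.2.12 and DESeq2 1.4.5. The genome build and annotation are not given in the sources used here. Ratios between low values lay within 0.1 of a whole number in 20.8% of 15906 cases, against 20% if evenly spread, so depth could not be recovered and no count test was run. Symbols were matched through NCBI Gene identifiers for 17947 genes (99.3%).

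The deposited FPKM were analysed as log2(FPKM + 1) without rescaling. limma 3.58.1 in R 4.3.3 was fitted with 1 mean per group to all 12 libraries (8 error degrees of freedom), with a mean-variance trend, two-sided tests and Benjamini-Hochberg adjustment over 11664 genes. The script was tested on simulated data. The 9 genes, the lists of other genes and the comparisons were chosen with earlier results of these data known. The named genes were all 9, up to 4 genes of highest mean FPKM from each list, Comp, Cilp2 and the 5 genes most like Cilp and Thbs4 (1 item is not reported here), and any others are marked as chosen after their values were seen or as defining markers of a cell type.

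Replicate numbers belong to different animals. Deviations of same-numbered mice correlated at 0.147, 0.197 and 0.228 between the hispidulin groups and at 0.126, 0.330 and 0.232 between the sham groups, but not throughout between the DMSO groups (-0.024, -0.044 and -0.198) or the banded groups (0.300, 0.176 and -0.183), so a replicate block was fitted as an alternative. The closing section gives further fits, which changed the added value to 0.1, dropped the filter or raised it to 5 FPKM, rescaled by median of ratios or by quantiles, dropped the trend, weighted libraries, added the series of library numbers, kept only the groups compared or left out 1 library.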

Additional observations from a re-analysis of the deposited data

How the results depend on the processing

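Between DMSO+AB and DMSO+Sham, 608 genes and 6 of the 9 matricellular genes passed. Without a filter 383 genes passed, with library weights 1423, with the series of library numbers as a covariate, where DMSO+Sham mouse 1 stands alone, 142 and 1 of the 9, and with only the libraries compared 11 and 0 of the 9. Leaving out 1 library at a time gave 91 to 1050 genes and 1 to 7 of the 9. Leaving out DMSO+Sham mouse 1 (91 genes) or DMSO+AB mouse 2 (104) or 3 (190) lowered the counts most, to 1 of the 9 in each case. Between the hispidulin groups (AB and Sham), 0 genes passed, against 2 without a filter, 2 with median-of-ratios scaling, 3 with quantile normalization, 209 with library weights (1 of the 9), 49 with only the libraries compared (1 of the 9) and 0 to 10 with 1 library left out (0 to 1 of the 9). With the replicate block 17 genes passed there and 0 of the 9, and the replicate block changed no other call of the 9 or count of genes by over 1.5 times. Between Hispidulin+AB and DMSO+AB, 2 genes passed without a filter and 0 to 20 with 1 library left out (0 to 2 of the 9), and for the interaction 0 to 3 (0 to 1 of the 9), the highest in both without DMSO+AB mouse 1. The cause of these changes was not tested, apart from the fewer libraries or genes that some alternatives use by construction.

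Differences that changed sign under these alternatives were not called in any of them. In sham hearts Cilp was -0.019, Tnc -0.031 and Ccn2 -0.10 with the library-number covariate, and Thbs2 was -0.084 and Thbs4 0.067 with library weights. The interaction of Thbs1 was -0.063 with library weights and that of Thbs2 -0.28 with the covariate. With 1 library left out, Hispidulin+AB minus DMSO+AB ranged from -0.70 to 0.65 for Thbs1, -0.47 to 0.0085 for Thbs3 and -0.34 to 0.16 for Tnc. In sham hearts the ranges were -0.14 to 0.26 for Cilp, -0.21 to 0.11 for Thbs4 and -0.13 to 0.47 for Ccn2, and for the interaction -0.26 to 1.09 for Thbs1, -0.26 to 0.28 for Thbs2 and -0.38 to 0.12 for Tnc. Correlations and residual SDs without single mice were added after the data were seen. With 3 mice per group, unknown depth and values rounded to 0.01, differences in Tnc and other genes under 1 FPKM are the least certain.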
